A study of Mus musculus with 4 samples.

Results

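To describe the Notch pathway in mouse embryonic stem cells (mESC), the levels of 7 of its genes were read from single-cell transcriptomes. The 7 genes were chosen by symbol, out of 32285 genes in the count matrix, and comprised the ligand genes Jag1 and Dll1, the receptor genes Notch1, Notch2 and Notch3, the gene of the DNA-binding factor Rbpj and the target gene Hes1. All 7 were found. The cells were E14tg2a.4, a male mESC line, either wild-type (WT, 2 samples) or heterozygous for a truncating gene trap in Srrm2 (Srrm2 hKO, 2 samples). The hKO samples all came from a single gene-trap line, and both genotypes were kept in gelatin-coated flasks with the cytokine LIF, which sustains self-renewal. Before collection the cells spent 24 h or 72 h in serum-free medium with LIF, per the labels, which tie neither time to a sample. In the methods of the study, both genotypes have the same growth time before the single-cell run, and it is neither of these. Each cell in the matrix carried a library number from 1 to 4, but no source used here tied a number to a sample. The libraries are therefore described by number, each as a single culture, and WT and Srrm2 hKO were not compared. No p-value was computed between libraries, and every interval given covers counting error only.

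Notch signalling runs between touching cells. A ligand of the Delta or Jagged family on one cell binds a Notch receptor on its neighbour, the receptor is cut by Adam10 and then by gamma-secretase, and the freed intracellular domain enters the nucleus, where it joins Rbpj and a Mastermind co-activator on the promoters of genes such as those of the Hes and Hey repressors. In the absence of that domain Rbpj sits with co-repressors. In mESC the pathway is known for favouring neural commitment once the cells leave self-renewal.

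The cell filter stated by the study, as applied here, kept 31989 of 41142 barcodes, which is more cells than the study states, with 8118, 8514, 7893 and 7464 cells in libraries 1 to 4 and 166839268 to 200180473 unique molecular identifiers (UMIs) per library. Of 31883 barcode sequences among the kept cells, 105 occurred in more than 1 library. Srrm2 itself stood at 387, 533, 238 and 356 UMIs per 1000000 UMIs (CPM) in libraries 1 to 4, and these levels were not used to assign a library to a genotype. The labelled cell type was checked against its markers, and all 10 naive pluripotency genes (Nanog, Esrrb and Zfp42 among them) were detected in every cluster, with sums of 931 to 1930 CPM per library. Unsupervised clustering without the Notch pathway genes gave 6 clusters. Libraries 1 and 3 shared clusters 1 and 5, while libraries 2 and 4 shared cluster 3 and lay otherwise mostly in different clusters. Cluster 1 held 94.3% of library 1 and 73.4% of library 3. The sum of the 10 naive pluripotency genes was 1947 CPM in cluster 1 and 1854 CPM in cluster 2, so that list did not set these clusters apart and neither was named from it. Cluster 2 held 80.1% of library 2 and cluster 4 held 52.0% of library 4. Cluster 3, called formative-like from its 10 formative genes (2409 CPM, with Fgf5 among its leading genes by fold), held 19.1% of library 2 and 43.8% of library 4. Cluster 5, called keratin-high from 9 keratin and contractile genes (3976 CPM), held 5.46% of library 1 and 26.0% of library 3. Cluster 6 had 51 cells, with 411 CPM of two-cell-like genes. Cluster 2 lay mostly in library 2 and cluster 4 mostly in library 4, and few cells of libraries 1 and 3 were in either, so the state of the cells and the library cannot be told apart when clusters 1, 2 and 4 are set against each other across libraries, and the contrasts were taken inside a library.

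The clearest pattern among the 7 genes lay between the clusters of a library. Rbpj was about 2-fold lower in the formative-like and keratin-high cells than in the largest cluster of the same library, in 4 of 4 libraries. In the same cells Notch2 and Notch3 were higher by 1.51-fold to 2.90-fold, though in library 4 not against cluster 2, a smaller cluster. The ligand genes Jag1 and Dll1, the receptor gene Notch1 and the target gene Hes1 did not reach 1.5-fold in the same direction in both libraries of either contrast. Between whole libraries Rbpj varied least of the 7, by 1.15-fold, and Jag1, Hes1 and Notch3 varied most, but between the largest clusters of the libraries Rbpj varied by 1.47-fold, behind Jag1 (2.45-fold) and Hes1 (1.86-fold) and beside Dll1 (1.44-fold), Notch3 (1.39-fold), Notch2 (1.38-fold) and Notch1 (1.25-fold).

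Of the ligand genes, Jag1 (ENSMUSG00000027276, chromosome 2, 137081456 to 137116644 on the minus strand, build GRCm38) encodes Jagged1, a membrane ligand with a long extracellular domain. Its level was 5.59, 12.0, 5.51 and 7.61 CPM in libraries 1 to 4. Libraries 1 and 3 had overlapping intervals, library 4 lay above both, and library 2 stood highest. The highest library was 2.18-fold above the lowest (95% interval 2.02 to 2.35). Dll1 (ENSMUSG00000014773, chromosome 17, 15367354 to 15376872 on the minus strand) encodes the Delta-like ligand of somite and neural development. It was counted at 2.24, 1.67, 1.67 and 1.81 CPM in libraries 1 to 4, from 288 to 373 UMIs each. Only library 1 stood apart from libraries 2 and 3, with intervals that overlapped between each pair of neighbours in the order, and the fold was 1.34 (1.15 to 1.56).

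Among the receptor genes, Notch1 (ENSMUSG00000026923, chromosome 2, 26457903 to 26516663 on the minus strand) was measured at 17.6, 21.7, 18.3 and 22.5 CPM in libraries 1 to 4. The values formed a lower pair, libraries 1 and 3, and a higher pair, libraries 2 and 4, with overlap inside each pair and none between them, and the fold from lowest to highest was 1.28 (1.22 to 1.34). Notch2 (ENSMUSG00000027878, chromosome 3, 98013527 to 98150361 on the plus strand) was at 4.74, 4.89, 5.18 and 7.09 CPM, so that library 4 alone was set apart, by 1.5-fold (1.37 to 1.64) over library 1. Notch3 (ENSMUSG00000038146, chromosome 17, 32120820 to 32166852 on the minus strand) was at 7.63, 10.1, 10.6 and 12.1 CPM, lowest in library 1 and highest in library 4, with libraries 2 and 3 overlapping. Its fold of 1.58 (1.48 to 1.70) became 1.43 when the libraries were scaled by median-of-ratios size factors in place of total UMIs.

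Rbpj (ENSMUSG00000039191, chromosome 5, 53466152 to 53657362 on the plus strand) encodes the only DNA-binding component that all 4 mammalian Notch receptors share. From 117691 UMIs in all, its level was 152, 175, 156 and 174 CPM in libraries 1 to 4. Libraries 1 and 3 overlapped, as did libraries 2 and 4, and the fold was 1.15 (1.13 to 1.17). With size factors the ratio of library 2 over library 1, the pair of that fold, was 1.05, and the libraries were not ranked anew. The genome also carries processed Rbpj pseudogenes, Rbpj-ps1 on chromosome 4 and Rbpj-ps3 on chromosome 6, so reads that match the gene and a copy equally could not be placed with certainty. Counts of 3′ ends do not report which exons a transcript kept.

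Hes1 (ENSMUSG00000022528, chromosome 16, 30064384 to 30067796 on the plus strand) encodes a basic helix-loop-helix repressor and is a textbook target of Notch, though other signals drive it too. It stood at 34.2, 19.8, 27.1 and 19.7 CPM in libraries 1 to 4. Libraries 2 and 4 did not differ beyond their counting intervals, and libraries 3 and 1 lay above them in that order. The fold from lowest to highest was 1.74 (1.67 to 1.81).

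**Figure D1:**
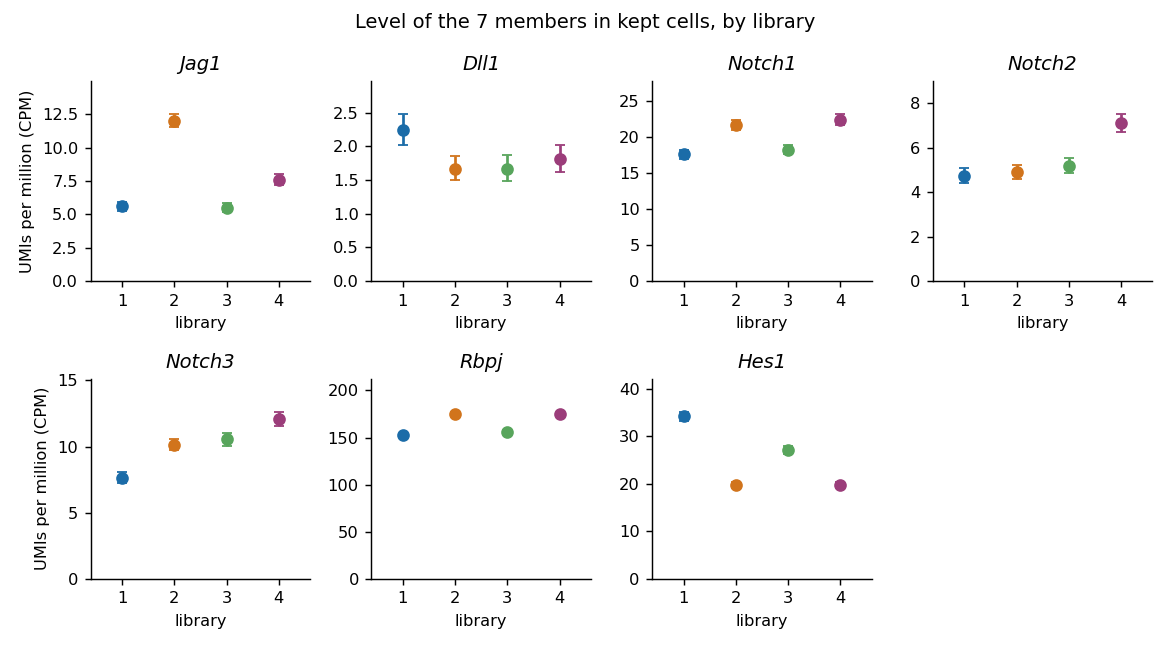
Level of each of the 7 genes in UMIs per 1000000 (CPM, linear axes from 0) in kept cells of libraries 1 to 4, with exact 95% Poisson intervals as bars. Rbpj stays between 152 and 175 CPM, while Jag1 is highest in library 2 at 12.0 CPM and Hes1 in library 1 at 34.2 CPM.

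Counted by the rule of a highest library at least 1.5-fold above the lowest, 3 of the 7 genes (Jag1, Hes1 and Notch3) were past the fold. Over all 12002 genes with at least 800 UMIs the share was 45.0%, so the share among the 7 was close to the background. Notch2 lay just under the limit and Notch3 just over it. The wider list of 64 Notch pathway genes gave 23 of 52 tested genes (44.2%), with a median fold of 1.48 against 1.45 over all genes tested. Of the 23, 14 were highest in library 4 and 14 were lowest in library 1. Over all genes past the fold, 2209 of 5403 were highest in library 4 and 2693 were lowest in library 1. The other 12 listed genes had too few UMIs for the rule, among them Dll4, Hes3, Hes5, Hes7, Hey2 and Heyl.

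The same counts were read by role, without a test between roles and with 3 of 10 genes of the nuclear complex and 5 of 8 target genes under the limit of 800 UMIs. None of the 7 tested genes of the nuclear complex and its co-activators, Rbpj included, passed 1.5-fold, and their median fold was 1.15. Of those under the limit, Maml3 (708 UMIs) was 7.17-fold (5.14 to 10.2) and Maml2 (693 UMIs) 2.18-fold apart, both genes of Mastermind co-activators. All 3 tested target genes passed it (Hes1, Hey1 and Nrarp), as did 4 of 5 ligand genes, 3 of 5 glycosyltransferase genes, 4 of 8 protease genes, 2 of 4 receptor genes, 5 of 13 genes of ubiquitination and trafficking, and 2 of 7 genes of co-repressors and Rbpj-binding proteins. Among genes with at least 800 UMIs, the widest fold belonged to Dlk1, a non-canonical ligand gene, at 0.545, 1.199, 3.13 and 3.43 CPM in libraries 1 to 4 (6.29-fold, 5.04 to 7.93). L3mbtl3, whose product binds Rbpj and represses its targets, followed at 1.61, 5.29, 4.33 and 8.33 CPM (5.18-fold, 4.55 to 5.93).

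The fringe genes Lfng and Mfng, whose products add sugars to Notch receptors and so alter which ligand they answer, were 4.54-fold and 3.61-fold apart, both lowest in library 1 and highest in library 4. Dtx4 (4.31-fold) and Dtx3l (3.86-fold), of the Deltex family of ubiquitin ligases, had the same lowest and highest libraries. The remaining wide genes were Hey1 (2.61-fold), Jag2 (2.51-fold), Dll3 (2.20-fold), a ligand gene whose product blocks Notch within the same cell, and Psen2 (2.02-fold), of gamma-secretase. Dtx3, a Deltex gene that the study followed for its splicing, was at 29.7, 21.8, 30.0 and 24.3 CPM, a fold of 1.37 (1.32 to 1.43).

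**Figure D2:**
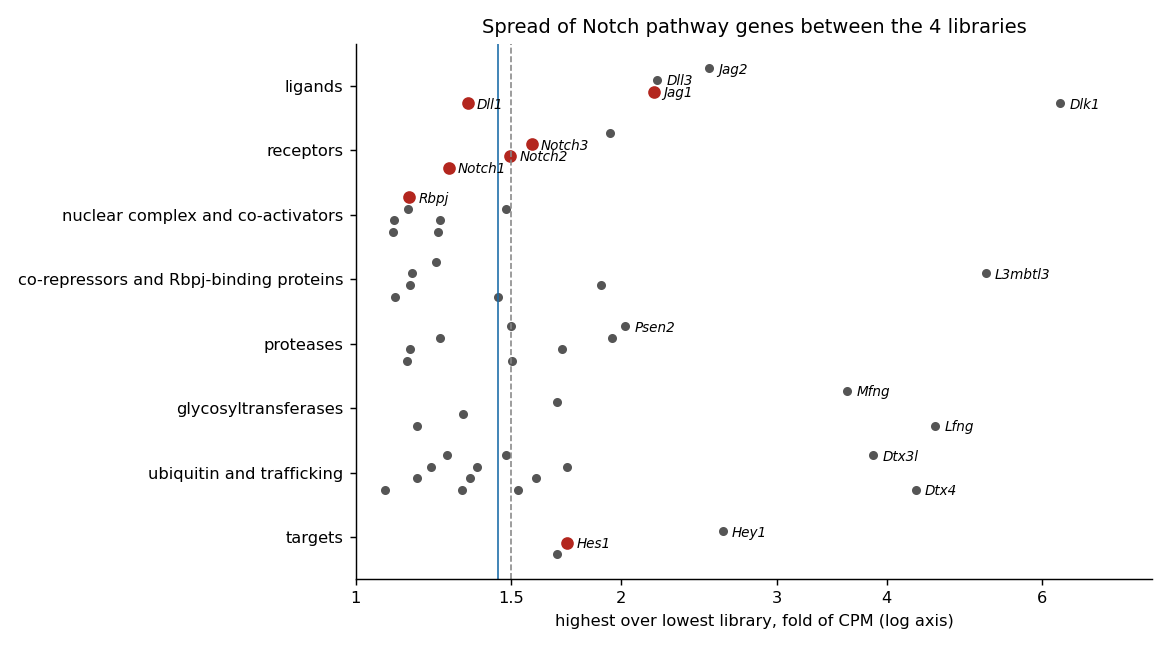
Fold of the highest over the lowest library (log axis) for the 52 Notch pathway genes with at least 800 UMIs, in rows by role, with the 7 chosen genes in red; the vertical offset within a row only separates points. The dashed line marks 1.5-fold and the blue line the median of all genes tested, 1.45; Rbpj sits at 1.15 and Dlk1 at 6.29.

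The 4 libraries were next divided by cluster, which gave 9 sums of at least 100 cells each. Rbpj stood at 158 CPM in cluster 1 of library 1 and at 184 CPM in that of library 3. Its level was 195 CPM in cluster 2 of library 2, 233 CPM in cluster 2 of library 4 and 231 CPM in cluster 4 of library 4. It was 100 CPM and 105 CPM in the formative-like cluster 3 of libraries 2 and 4, and 86.2 CPM and 95.7 CPM in the keratin-high cluster 5 of libraries 1 and 3. The 4 lowest of the 9 values were thus those of clusters 3 and 5, with a gap from 105 to 158 CPM and no overlap of intervals. In the 51 cells of cluster 6 the level was 115 CPM (94.9 to 138).

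Within a library, Rbpj in cluster 3 was 0.51 times its level in the largest cluster in library 2 (0.50 to 0.53) and 0.45 times in library 4 (0.44 to 0.47). For cluster 5 the ratios were 0.55 in library 1 (0.51 to 0.58) and 0.52 in library 3 (0.50 to 0.53). Set between libraries instead, the same cluster differed less: the ratio was 1.05 for cluster 3 and 1.196 for cluster 2 (library 4 over 2), and 1.11 for cluster 5 and 1.17 for cluster 1 (library 3 over 1). When only the largest cluster of each library was compared, Rbpj was 1.47-fold (1.441 to 1.495) higher in library 4 than in library 1, a wider difference than the 1.15-fold between whole libraries, of which library 4 had the largest share of cluster 3.

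Notch2 and Notch3 went the other way. Notch3 was at 6.66 CPM in the largest cluster of library 1 and at 19.3 CPM in its cluster 5, and at 6.56 and 18.8 CPM in library 3, so the ratios were 2.90 (2.51 to 3.34) and 2.87 (2.61 to 3.16). In cluster 3 it was at 13.8 CPM against 9.14 CPM in library 2 and at 14.9 CPM against 8.86 CPM in library 4, ratios of 1.51 (1.36 to 1.66) and 1.69 (1.54 to 1.85). Notch3 thus met the limit in cluster 3 of library 2 only narrowly, and with size factors that ratio was 1.41.

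For Notch2 the level in cluster 5 was 8.94 CPM against 4.39 CPM in library 1 and 8.28 against 3.71 CPM in library 3, ratios of 2.04 (1.65 to 2.49) and 2.23 (1.95 to 2.55). In cluster 3 it was 7.07 against 4.30 CPM in library 2 and 9.24 against 5.12 CPM in library 4, ratios of 1.64 and 1.81. The highest Notch2 value of the 9 was therefore in the formative-like cells of library 4 and the lowest, 3.71 CPM, in cluster 1 of library 3.

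Notch1 remained between 15.1 and 22.3 CPM in 8 of the 9 sums. Its ratios over the largest cluster were 0.87 and 1.04 for cluster 3 and 0.85 and 0.78 for cluster 5. Hes1 was at 34.7 and 28.1 CPM in the 2 clusters of library 1, 28.2 and 24.9 CPM in those of library 3, 20.7 and 15.9 CPM in those of library 2, and 28.5, 19.6 and 18.7 CPM in clusters 2, 3 and 4 of library 4. Both clusters of libraries 1 and 3 were thus above both of library 2. Jag1 was at 5.64 and 4.63 CPM in the 2 clusters of library 1, 5.19 and 6.17 CPM in those of library 3, and 12.7 and 9.19 CPM in those of library 2, and at 17.6, 6.38 and 8.26 CPM in clusters 2, 3 and 4 of library 4. The highest of the 9 Jag1 values was that of cluster 2 of library 4. Dll1 was too low for narrow intervals, with ratios from 0.62 to 1.19 in the 4 contrasts of clusters 3 and 5.

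**Figure D3:**
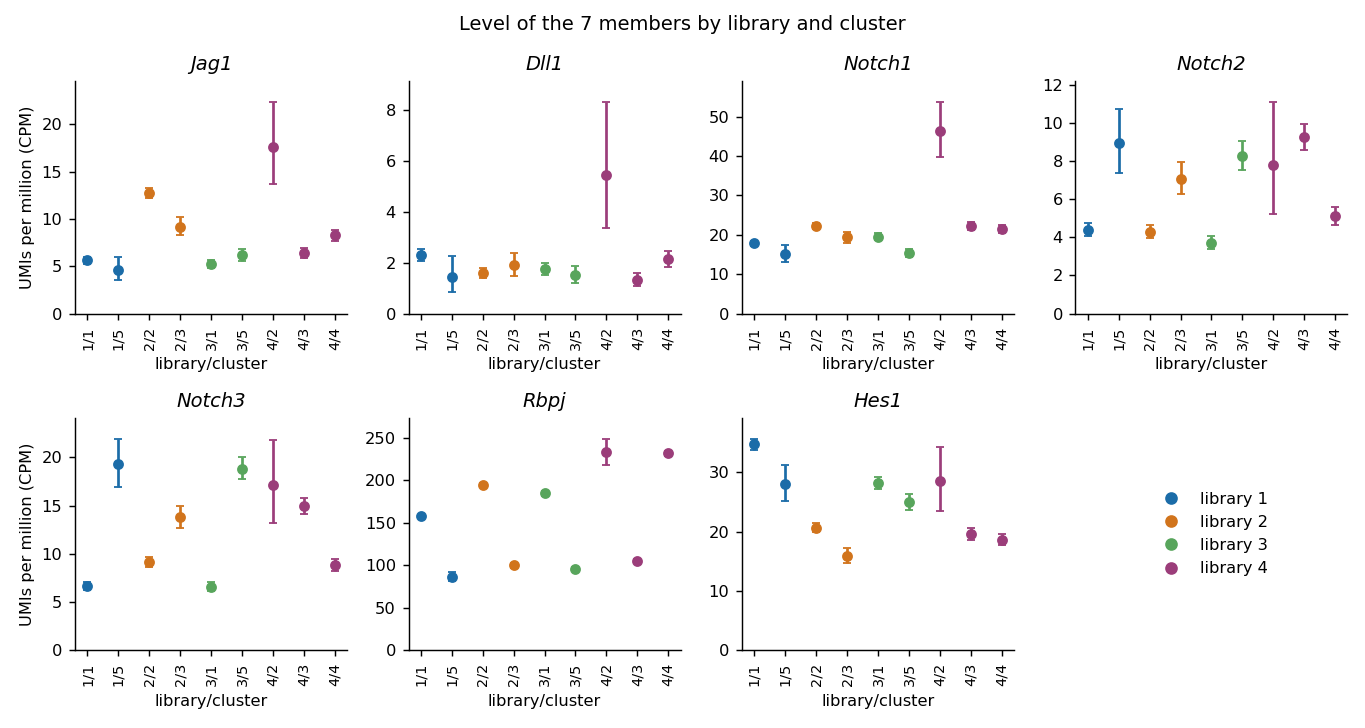
Level of each of the 7 genes (CPM, linear axes from 0) in the 9 combinations of library and cluster with at least 100 cells, named library/cluster and coloured by library, with exact 95% Poisson intervals. Rbpj is lowest in clusters 3 and 5 (86.2 to 105 CPM) of every library that has them, Notch2 and Notch3 are higher there than in the largest cluster of the same library, and Hes1 and Jag1 vary within library 4 as well as between libraries.

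The wider pathway list was read in the same contrasts. In cluster 3, 9 of 53 tested genes were at least 1.5-fold higher in both libraries (background 13.2% of all genes tested) and 4 were lower (background 7.61%). The higher genes were Jag2, Dlk1, Notch2, Notch3, Ctbp1, L3mbtl3, Furin, Dtx4 and Nrarp, and the lower ones Notch4, Rbpj, Kat2b and Hes3. In cluster 5, 8 of 48 were higher (background 15.3%), namely Jag2, Notch2, Notch3, Ctbp1, L3mbtl3, Furin, Mib1 and Nrarp, and 4 were lower (background 9.62%), namely Notch4, Rbpj, Kat2b and Mib2. With 1 library of a contrast read alone, an alternative chosen after the data were seen, 15 of 53 pathway genes were past the fold in either direction in cluster 3 of library 2 (26.3% of all genes) and 17 of 54 in that of library 4 (26.9%). In cluster 5 they were 17 of 49 in library 1 (33.6%) and 22 of 51 in library 3 (34.6%). Counted in both libraries, the shares of pathway genes were near the background in both contrasts, so the numbers alone do not set the pathway apart from other genes.

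Among the genes with at least 200 UMIs in each library, the largest ratios were those of Dtx4 and Dlk1 in cluster 3 and of L3mbtl3 in both clusters. Below that limit Maml3 had ratios of 16.2 and 14.02 in cluster 3 and of 18.4 and 40.9 in cluster 5, with 11 to 26 UMIs in the largest clusters. Dtx4 was at 6.45 against 0.443 CPM in library 2 and at 7.75 against 2.01 CPM in library 4. L3mbtl3 was at 9.74 against 0.948 CPM in cluster 5 of library 1 and at 10.4 against 1.44 CPM in library 3, and its ratios in cluster 3 were 5.12 and 4.26. Thus, where Rbpj was lower, the gene of this Rbpj-binding repressor was higher in 4 of 4 libraries, as was Ctbp1, a co-repressor gene, by 1.71-fold to 1.79-fold.

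Nrarp, a target gene whose product dampens Notch signalling, was higher by 3.12-fold and 2.07-fold in cluster 3 and by 4.36-fold and 1.93-fold in cluster 5, while the target gene Hes1 was not. Hes5 and Hes7, other target genes of the Hes family, were under the limit of 200 UMIs and were not counted, with ratios in cluster 3 of 2.37 (1.698 to 3.28) and 1.72 (1.29 to 2.32) for Hes5 and of 3.42 (2.35 to 4.95) and 2.703 (1.87 to 3.98) for Hes7 in libraries 2 and 4. In cluster 5 their ratios were 1.86 and 0.763 for Hes5 and 3.59 and 1.38 for Hes7, from 7 to 25 UMIs in that cluster. Hey1, also a target gene, had enough UMIs in cluster 3 and was not counted, with ratios of 1.26 and 1.29. In cluster 5 it was under the limit, with ratios of 1.27 and 0.999. The target gene Hey2 was under the limit in both, at 1.38 and 1.64 in cluster 3 and 1.13 and 1.79 in cluster 5. Hes3, of the same repressor family as Hes1, was lower in cluster 3, at 0.30 and 0.12 times the level of the largest cluster, from 27 and 20 UMIs. Furin, whose product trims the receptor precursors, was 1.96-fold to 3.86-fold higher over the 4 contrasts. Notch4 was 0.27 to 0.63 times its level in the largest cluster, so the receptor genes did not move as one group. Mib1 and Mib2, which encode ligases that act on ligands, went in opposite directions in cluster 5, with ratios of 1.76 and 1.78 for Mib1 and 0.60 and 0.49 for Mib2.

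**Figure D4:**
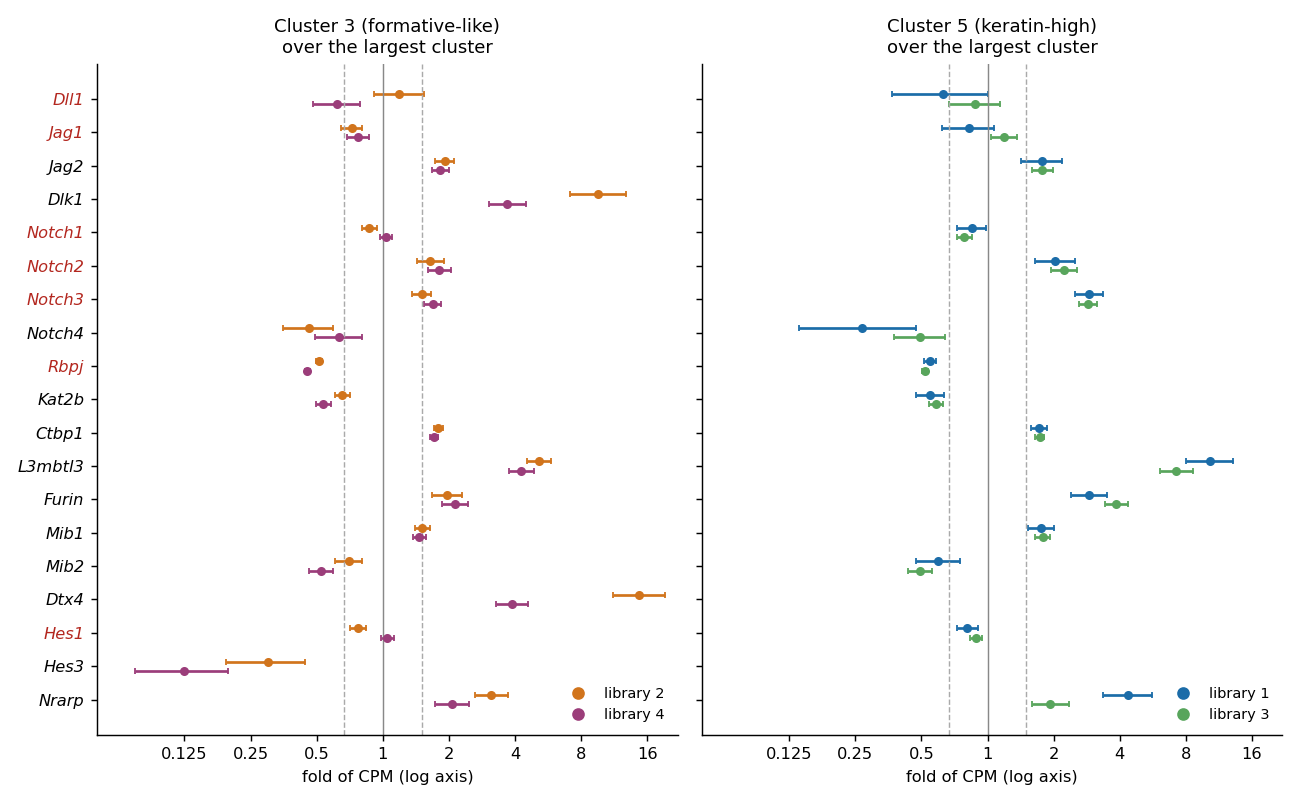
Fold of CPM over the largest cluster of the same library (log axis, exact 95% intervals) for cluster 3 in libraries 2 and 4 and for cluster 5 in libraries 1 and 3, for the 7 chosen genes (red names) and every other pathway gene past 1.5-fold (dashed lines) in both libraries of a contrast. Genes without enough UMIs in a contrast have no point there; Rbpj lies between 0.45 and 0.55 in all 4 libraries.

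The contrasts of clusters 3 and 5 come from different libraries and share no cells. Of the 9 pathway genes higher in cluster 3, 7 had enough UMIs in the cluster 5 contrast, and all 7 were higher there too, among 8 higher genes (87.5%). The other two, Dlk1 and Dtx4, could not be counted in cluster 5 and had ratios there of 15.7 and 6.72 and of 13.9 and 7.14. Of the 4 lower genes, the 3 with enough UMIs (Notch4, Rbpj and Kat2b) were lower in cluster 5 as well, among 4 lower genes (75.0%), and Hes3 had ratios there of 0.24 and 0.15 from 1 and 3 UMIs. Over all 11055 genes tested in both, 993 (8.98%) were higher and 626 (5.66%) were lower in all 4 libraries. Among these, the 993 were 79.4% of the genes higher in cluster 3 and 58.7% of those higher in cluster 5, and the 626 were 75.7% and 64.3% of the lower genes. No pathway gene was past the limit in opposite directions, and 8 of all genes were. Markers of other states moved with these contrasts. The naive list was at 491 and 306 CPM in cluster 3 and at 550 and 525 CPM in cluster 5, against 1453 to 2043 CPM in the largest clusters. Each contrast also held the markers that named the other. In cluster 3 the keratin and contractile list was at 374 against 158 CPM in library 2 and at 878 against 222 CPM in library 4. In cluster 5 the formative list was at 1459 against 747 CPM in library 1 and at 1286 against 841 CPM in library 3. The 6 fibroblast genes were all detected in cluster 5, but in cluster 1 as well. Their sums in cluster 5 were 8.54 and 33.4 CPM in libraries 1 and 3, against at most 0.301 CPM in the largest clusters. In cluster 3 the sums were 0.517 and 0.951 CPM. Over cluster 5, Col1a1, Col1a2 and Col3a1 were at 12.0, 14.4 and 3.65 CPM, Postn at 1.38, Dcn at 0.213 and Lum at 0.0142 CPM. The part of all these markers in the levels of Rbpj, Notch2 and Notch3 was not tested.

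The largest cluster of library 4 was cluster 4, while that of library 2 was cluster 2. With cluster 2 as the base in both libraries, an alternative chosen after the data were seen, 9 of 50 pathway genes were past the limit in either direction, against 18% of all genes tested. Rbpj remained at 0.51 and 0.45 times the base. Notch2 was then 1.19-fold (0.826 to 1.78) and Notch3 0.874-fold (0.682 to 1.14) in library 4, so neither was counted. That base had 225 cells.

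In those 225 cells of library 4, several of the 7 genes were higher than in cluster 4 beside them. Notch1 was at 46.4 against 21.4 CPM, a ratio of 2.16 (1.85 to 2.52), the highest Notch1 value of the 9 sums. Jag1 was at 17.6 against 8.26 CPM, Dll1 at 5.44 against 2.13 CPM from 21 UMIs, Notch3 at 17.1 against 8.86 CPM, Hes1 at 28.5 against 18.7 CPM and Notch2 at 7.77 against 5.12 CPM. Rbpj was the exception among the 7, with a ratio of 1.01 (0.94 to 1.08). In all, 9 of 49 pathway genes were higher (background 9.07%), the remaining ones being Jag2, Psen2 and Fbxw7, and 2 were lower (background 4.45%). Fbxw7 was lost with size factors, with pathway genes kept in the clustering and at resolution 0.3. Psen2, Hes1 and both lower genes were lost with pathway genes kept, where Dll1 had a ratio of 3.10 but too few UMIs to count. At resolution 0.3 Notch2 (ratio of 1.477) and Hes1 (1.446) fell below the limit as well. The lower genes were Lfng, with 2 UMIs and a ratio of 0.22 (0.0264 to 0.802), and Dtx3l. Only library 4 held enough cells of both clusters, so the contrast has no second library. Mdm2 (165 against 39.2 CPM) and the nuclear RNA Malat1 (9301 against 4264 CPM) also differed, and their part in the contrast was not tested. Without 48 of the 225 cells, which stood apart once pathway genes were kept in the clustering, 9 of 49 genes were counted in either direction, against 10.6% of all genes tested, and Hes1 was at 27.0 CPM, below the limit.

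Rbpj binds the letters TGGGAA, most often within GTGGGAA, and the RefSeq promoters of the genes were searched for both on either strand. A promoter here is the 300 bases from 250 before to 50 after a transcript start in build GRCm38.p6. TGGGAA was found in 25.6% of 32851 promoters and GTGGGAA, which contains it, in 6.38%. Of 66 promoters of 51 pathway genes, 18 held TGGGAA and 8 held GTGGGAA. Entries were matched for 6 of the 7 genes, with 8 promoters; Hes1 was not matched. Rbpj was the only one of them with a match, in both of its overlapping promoters. The 250 bases before the start in the first of the 2 matched Rbpj entries, which lies inside the annotated gene and not at its outermost start, are printed beside those of Notch2 and Notch3, the genes that ran opposite to Rbpj between clusters. TGGGAA, or TTCCCA for the other strand, is in capitals, and each run reads 5′ to 3′ on the strand of its gene.
Rbpj, chr5:53590096-53590345, plus strand: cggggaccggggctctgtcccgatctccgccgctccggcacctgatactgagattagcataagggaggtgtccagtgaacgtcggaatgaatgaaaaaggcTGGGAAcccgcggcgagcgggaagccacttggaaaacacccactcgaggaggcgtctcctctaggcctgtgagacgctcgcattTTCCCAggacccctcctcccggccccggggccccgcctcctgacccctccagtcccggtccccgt
Notch2, chr3:98013288-98013537, plus strand: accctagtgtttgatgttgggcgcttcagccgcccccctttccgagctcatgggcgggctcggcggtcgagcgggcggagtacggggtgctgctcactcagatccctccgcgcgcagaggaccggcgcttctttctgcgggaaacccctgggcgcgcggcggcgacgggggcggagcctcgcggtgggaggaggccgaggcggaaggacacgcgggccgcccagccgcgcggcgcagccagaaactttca
Notch3, chr17:32166891-32167140, minus strand: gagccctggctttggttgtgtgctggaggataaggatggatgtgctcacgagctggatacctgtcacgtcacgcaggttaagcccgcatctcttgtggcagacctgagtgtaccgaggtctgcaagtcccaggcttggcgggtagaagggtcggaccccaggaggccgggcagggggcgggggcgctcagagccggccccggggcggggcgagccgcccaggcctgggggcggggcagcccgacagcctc
The first of these runs holds the letters once on each strand, and the runs of Notch2 and Notch3 do not hold them. A match in a promoter describes its letters and does not show a bound site, and a window without one says nothing of binding elsewhere.

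Levels over single cells were compared after each cell was thinned to 5000 UMIs, which left out no kept cell. An Rbpj UMI was then found in 51.0%, 54.6%, 53.1% and 52.0% of the cells of libraries 1 to 4, and in 89.6%, 92.2%, 90.1% and 89.2% without thinning. The libraries thus differed by less than 4 percentage points. Counts that varied between cells only by sampling would have given 53.5%, 57.6%, 56.1% and 57.4% at the same means, so Rbpj was found in somewhat fewer cells than that in each library. Its variance over its mean was 1.13, 1.18, 1.203 and 1.37. Inside the largest cluster of each library it was 1.13, 1.14, 1.15 and 1.27, so library 4 had the largest ratio both ways.

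Hes1 was found in 15.6%, 9.27%, 12.3% and 9.003% of the thinned cells of libraries 1 to 4 (45.3%, 31.4%, 38.8% and 30.4% without thinning), which gave the order of its CPM. Its variance over mean lay between 1.07 and 1.096. The receptor genes were found in 7.82% to 10.8% of cells for Notch1, 2.03% to 3.46% for Notch2 and 3.54% to 5.84% for Notch3, Jag1 in 2.74% to 6.15% and Dll1 in 0.786% to 1.13%. For these 5 genes the variance over mean was between 0.986 and 1.08. At so few UMIs per cell this ratio lies near 1 whether or not cells differ, so nothing is read from it for these genes. Free RNA in the droplets was not measured, since no cells that should lack these genes were present.

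The largest cluster of each library was also divided into cells with and without an Rbpj UMI at 5000 UMIs. Of these cells, 52.0%, 58.9%, 59.1% and 63.3% held one in libraries 1 to 4, where sampling alone would have given 54.5%, 61.3%, 61.2% and 67.8%, so the division mostly follows sampling and does not separate cells that have Rbpj RNA from cells that lack it. Ratios near 1 therefore say little about the genes. In cells with an Rbpj UMI, Hes1 was at 32.4, 21.1, 25.9 and 18.4 CPM in libraries 1 to 4, and in cells without one at 39.0, 21.2, 31.9 and 19.9 CPM. The ratio was below 1 in each library, with an interval that left out 1 in libraries 1 (0.83, 0.74 to 0.92) and 3 (0.81, 0.71 to 0.93) and not in libraries 2 and 4. Notch3 had ratios of 0.74 (0.57 to 0.95), 0.65 (0.52 to 0.82), 1.18 (0.86 to 1.63) and 0.76 (0.56 to 1.04), in different directions. The interval left out 1 in libraries 1 and 2 and not in libraries 3 and 4. For Jag1 the 4 ratios were 0.85, 0.85, 0.83 and 0.86, and each interval included 1. Each interval also included 1 for Notch1 (ratios from 0.91 to 1.03), Notch2 (1.01 to 1.25) and Dll1 (0.66 to 1.097). No gene had an interval that left out 1 in all 4 libraries, and none was 1.5-fold apart in all 4.

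Pairs of the 7 genes were also read for being found in the same cell. In the largest clusters, 3 of 84 combinations of pair and library had an interval that left out the number expected from the separate shares. They were Rbpj with Notch3 in library 2 (140 cells, 0.81 of the expected number, 0.68 to 0.95), Notch1 with Jag1 in library 2 (61 cells, 1.33, 1.02 to 1.70) and Hes1 with Dll1 in library 3 (1 cell). None of the 3 pairs had such an interval in another library. At 95%, some of 84 such intervals would leave out the expected number by counting error alone, so nothing is read from these 3.

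Finally, the genes most like Rbpj and Hes1 over the 9 sums of library and cluster were taken by Pearson's r of log2(CPM + 0.5), among 5305 genes of at least 20 CPM. The points share libraries and clusters and are not independent, and r is given as a description. For Rbpj they were Fnbp1 (r = 0.989), Zswim1 (0.980), Tcea3 (0.979), a transcription elongation factor gene, D230025D16Rik (0.969) and Trip12 (0.968), a ubiquitin ligase gene. Tcea3 was at 167 CPM in cluster 1 of library 1 and 50.6 CPM in its cluster 5, and at 287 CPM in cluster 4 of library 4 and 70.7 CPM in its cluster 3. Of the other 6 genes, Notch1 had an r with Rbpj of 0.645, Dll1 of 0.616 and Jag1 of 0.568, while Notch3 had -0.584, Notch2 -0.649 and Hes1 0.135. Those most like Hes1 were Atp6ap2 (0.970), Eef1a1 (0.961), of the translation machinery, Uap1l1 (0.956), Nupr1 (0.954), a stress-response gene, and Ppp1r15a (0.953), which encodes a phosphatase subunit of the same response. No gene of the pathway list was among the 5 for either. Most of the list, Notch2, Notch3, Jag1 and Dll1 included, lay under 20 CPM and could not be ranked, so nothing is read from that absence.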

How the data were processed

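Single-cell libraries of 3′ transcript ends (10x Genomics 3′ v3) from 2 WT and 2 Srrm2 hKO samples were aligned by the authors to mm10 with Cell Ranger 6.1.2 (from the submitters' processing notes), and the deposited matrix holds raw UMI counts of 32285 genes in 41142 barcodes. The authors joined the 4 libraries with an aggregation step that subsamples reads to similar depth, so differences in sequencing depth were reduced before deposit. The library number of a barcode was used as it stands, because no label ties it to a sample.

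Cells were kept, as in the study's methods, when UMIs and genes were at least the library mean minus 1 SD and the mitochondrial share was at most 10%. Doublets were not removed, and 1615 cells above 2 times their library's median UMIs were left out in an alternative. Levels are UMIs summed over cells per 1000000 UMIs, with exact Poisson intervals. Ratios have exact conditional binomial intervals and shares have Clopper-Pearson intervals, all at 95%, and UMIs are counting units of single cultures. Kept totals of 166839268 to 200180473 UMIs put the floor of 3 UMIs at 0.0150 to 0.0180 CPM.

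Clusters used 2000 variable genes (loess in R 4.3.3) less 6 pathway genes (1994), 20 principal components and 20 neighbours (scikit-learn 1.9.0). The 6 were Dlk2, Furin, Hes1, L3mbtl3, Maml3 and Rbpj. The clusters were drawn by Leiden at resolution 0.2 (leidenalg 0.10.2), without the batch correction of the study. A gene counted between libraries had at least 800 UMIs in all and a highest library at least 1.5-fold above the lowest. Between clusters it had at least 200 UMIs in each contrast and a 1.5-fold difference in one direction in each library with at least 100 cells of the cluster. Named genes were the 7, the 10 other pathway genes with the widest fold between libraries, all counted between clusters, the 5 most like Rbpj and Hes1, and Dtx3. Genes named outside this rule included Maml2, Maml3, Hes5, Hes7, Hey2, Dlk2, Malat1, Mdm2, Trp53inp1 and Cdkn1a. The fold rules were tested on simulated data with counting error only. That does not show how often unchanged genes pass the fold between real cultures. The genes, the pathway list and the marker lists were chosen with earlier results of these data known. Gene positions are from the GENCODE annotation of GRCm38, which may differ from the one used for counting.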

Additional observations from a re-analysis of the deposited data

How the results depend on the processing

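No paired analysis was possible because the labels' replicate numbers are not tied to library numbers. No group comparison had replicates to leave out. With 1 library of a contrast read alone, the 13 genes of cluster 3 became 15 and 17, and the 12 of cluster 5 became 17 without library 3 and 22 without library 1; these counts cannot be lower than those that ask for both libraries. The Rbpj ratio of library 2 over library 1, 1.15, was 1.13 as a mean over the CPM of single cells. It was 1.05 with size factors, which shifted the libraries by -0.06 to 0.09 on the log2 scale. The 23 pathway genes past the fold were 11 at a fold of 2, where 20.9% of all genes passed. The cluster 2 contrast had 11 of 49 tested pathway genes past the fold, against 13.5% of all genes tested. With pathway genes kept in the clustering it had 6 of 45, against 9.54% of all genes. Of the 6, 5 were the same and in the same direction (Notch1, Notch2, Notch3 and Jag1 among them). Psen2, Lfng, Dtx3l and Fbxw7 were lost, Hes1 fell to a ratio of 1.44, and Dll1, at 3.10, had too few UMIs. With size factors 10 of the 11 were kept, without Fbxw7. Of the 13 genes of cluster 3, 12 were called the same way with size factors and 12 with pathway genes kept, Notch3 being the loss both times, at ratios in library 2 of 1.41 and 1.49 against 1.51 in the values reported. All 12 of cluster 5 were kept under both, and at resolution 0.3, where 8 of the 11 of cluster 2 were kept and Notch2 (1.477), Hes1 (1.446) and Fbxw7 were lost. No counted gene changed direction under these 3 settings. With pathway genes kept, Rbpj, Hes1, L3mbtl3 and Furin helped to draw the clusters, so their calls in that setting are not independent of them. The Rbpj share in library 1 was 74.8% at 10000 UMIs and 89.6% without thinning, and the shares of the 7 genes in the other libraries moved with depth as well. Dll1, with 288 to 373 UMIs per library, is limited by depth most.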

Other observations

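When the pathway genes were kept in the clustering, 84 cells formed a cluster of their own that the clustering without them placed wholly in cluster 2. The genes put back were Dlk2, Furin, Hes1, L3mbtl3, Maml3 and Rbpj. The levels of Rbpj and Hes1 in the group are thus not independent of how it was drawn. The group was noticed after the data were seen, so its values are a description with no test. It held 7, 16, 13 and 48 cells of libraries 1 to 4. Notch1 was at 74.0 CPM in it (58.1 to 92.9, from 74 UMIs) against 20.04 CPM in all other kept cells, and stood at 53.9, 35.2, 86.1 and 86.8 CPM in the 4 libraries, above the other cells of the largest cluster (17.8 to 22.3 CPM) each time, on 4 to 52 UMIs, with intervals that left out the level of those cells in libraries 3 and 4 but not in libraries 1 and 2. Jag1 was at 27.0 CPM against 7.83 CPM and Notch3 at 26.0 CPM against 10.1 CPM in all other kept cells. Notch2 (6.00 against 5.46 CPM), Hes1 (29.0 against 24.9 CPM) and Dll1 (4.00 against 1.83 CPM) had intervals that included the level of those cells. By library, Hes1 was at 67.4, 5.03, 7.82 and 36.7 CPM, against 34.7, 20.7, 28.2 and 18.7 CPM in the other cells of the largest cluster. Only the interval of library 4 (23.0 to 55.6) left out that level. It included the 27.0 CPM of the rest of cluster 2 in library 4. In library 4, the rest of cluster 2 was at 16.9 CPM for both Jag1 and Notch3. The group's intervals there (11.5 to 37.1 and 9.16 to 32.8) included that level. For Notch1 the rest of cluster 2 was at 38.9 CPM, below the group's interval (64.8 to 114). Rbpj was at 148, 146, 133 and 220 CPM in libraries 1 to 4, against 158, 195, 184 and 231 CPM in the other cells of the largest cluster, and each interval included the level of those cells. Over the 4 libraries it was at 189 CPM (163 to 218) against 165 CPM in all other kept cells, with 48 of the 84 cells from library 4.

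Other features of the group moved with these levels. Its median mitochondrial share was 0.234% against 4.40% in the other cells, and its median depth was 11313.5 against 20352 UMIs per cell. Malat1, a nuclear RNA, was at 15275 against 4402 CPM. Mdm2 (364 against 45.6 CPM), Trp53inp1 (334 against 29.1 CPM) and Cdkn1a (90 against 33.4 CPM), genes known as targets of p53, were higher as well. The part of these features in the level of Notch1 was not tested.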
